A study of Mus musculus with 15 samples.

Results

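10 genes of the 2 major histocompatibility complex (MHC) pathways of antigen presentation were followed through 5 populations of mouse bone marrow cells. The genes were taken by symbol from the deposited expression table, and all 10 of the 10 names were found among its 14801 genes. They were Cd74, H2-Aa, H2-Ab1, H2-Eb1 and Ciita of the class II pathway and B2m, H2-K1, H2-D1, Tap1 and Tapbp of the class I pathway. Each population gave 3 RNA-seq libraries, 15 in all. Named as labelled, the progenitor populations were CMP, the usual short form for common myeloid progenitors, and CD115plusGMP, which are granulocyte-monocyte progenitors positive for CD115, the surface receptor of macrophage colony-stimulating factor. The neutrophil populations were PreNeut_Neutrophil and ProNeut_Neutrophil, shortened here to PreNeut and ProNeut, and Neutrophil. All 5 populations came from the marrow of healthy mice by flow cytometry sorting, with no treatment or engineered allele named. The sources used here do not give strain, age, sort gates or any pooling of animals. Nor do they tie the 3 libraries of a population to different animals, and every p-value below therefore rests on library-to-library spread alone, which may be technical.

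Class I molecules sit on nearly all nucleated cells and show peptides from the cell's own proteins to CD8 T cells. A heavy chain, here H2-K1 or H2-D1, pairs with the light chain beta-2-microglobulin, the product of B2m. Tap1 encodes one of the subunits of the transporter that carries peptides into the endoplasmic reticulum, and Tapbp encodes tapasin, which holds an empty class I molecule beside that transporter. Class II molecules are made mainly by dendritic cells, B cells and macrophages and show peptides from engulfed material to CD4 T cells. H2-Aa and H2-Ab1 encode the alpha and beta chains of I-A, H2-Eb1 encodes the beta chain of I-E, and Cd74 encodes the invariant chain that guides class II molecules to the endosome. Ciita encodes the coactivator that is needed for class II transcription.

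Groups and library sets coincide in this table. The first set is the 9 libraries of CMP, CD115plusGMP and Neutrophil, with 810794 to 1444403 reads per library, and the second set, deeper at 7493694 to 68171606 reads per library, is the 6 libraries of PreNeut and ProNeut. In the first set ND6, which lies on the strand opposite to the other mitochondrial protein genes, held 69.1% to 93.3% of the reads on 13 mitochondrial genes, against 0.154% to 0.230% in the second. The antisense gene Tsix held 9651 reads and its partner Xist 535 in the first set, against 30 and 43 in the second. A value of the first set is therefore read here as a value for the gene's locus, which may come in part or mainly from the opposite strand. The sources used here do not state how strand was handled in counting. Values are log2 CPM, the log2 of counts scaled to library size with 0.5 reads added, so a gene with 0 reads stood at -1.31 to 0.63 in the first set and at -8.14 to -4.90 in the second. Set and group cannot be told apart when a PreNeut or ProNeut value is put beside a value of the other 3 groups, and no test was made there. The labels were checked against neutrophil markers, a list of 12 genes, which summed to 10958 to 37669 CPM in Neutrophil, 73455 to 94694 in PreNeut and 93105 to 116436 in ProNeut libraries, against 38.1 to 42.6 in CMP libraries and 305 to 645 in CD115plusGMP libraries. The erythroid list of 8 genes summed to 396 to 525 CPM in CMP libraries and to at most 53.3 in any other library. In bulk RNA, fewer cells of a type and less RNA per cell cannot be told apart.

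Positions are given on GRCm38 (GENCODE M21). The MHC region of chromosome 17 holds Tapbp (33915899 to 33929292, plus strand), H2-K1 (33996017 to 34000347, minus), Tap1 (34187553 to 34197225, plus), H2-Ab1 (34257689 to 34269419, plus), H2-Aa (34282744 to 34287823, minus), H2-Eb1 (34305867 to 34316674, plus) and H2-D1 (35262730 to 35267499, plus). B2m lies on chromosome 2 at 122147686 to 122153083 and Ciita on chromosome 16 at 10480059 to 10528418, both on the plus strand. The RefSeq promoter table (GRCm38.p6) held 7 of the 10 genes. The 200 bases before the start are shown for the 5 of them that encode chains of the presenting molecules; Tap1 and Tapbp, which also hold core matches, are left out. Capitals mark matches, on either strand, to the Y box core ATTGG or its longer form CTGATTGG, the X box core CAACNGATG, the X2 box core TGACG, the kappa B site GGGGATTCC and the interferon response element TTTCNNTTC; the longer Y box contains the shorter. The sequences run 5′ to 3′ on the gene's strand and end at the base before the RefSeq start, which differs from the GENCODE start for H2-D1, whose window lies inside the GENCODE gene span, and for B2m.
H2-Aa, chr17:34287824-34288023, minus strand: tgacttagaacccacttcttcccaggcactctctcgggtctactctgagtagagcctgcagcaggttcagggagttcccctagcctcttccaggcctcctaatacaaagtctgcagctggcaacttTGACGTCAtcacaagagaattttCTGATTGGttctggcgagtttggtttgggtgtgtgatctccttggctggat
H2-Eb1, chr17:34305667-34305866, plus strand: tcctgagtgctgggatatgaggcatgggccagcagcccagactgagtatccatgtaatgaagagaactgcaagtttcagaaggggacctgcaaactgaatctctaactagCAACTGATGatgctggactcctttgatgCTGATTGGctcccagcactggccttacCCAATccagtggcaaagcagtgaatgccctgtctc
H2-K1, chr17:34000348-34000547, minus strand: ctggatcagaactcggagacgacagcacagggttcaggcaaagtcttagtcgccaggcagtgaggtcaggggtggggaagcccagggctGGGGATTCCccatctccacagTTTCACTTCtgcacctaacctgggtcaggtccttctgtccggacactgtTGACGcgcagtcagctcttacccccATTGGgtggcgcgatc
H2-D1, chr17:35262894-35263093, plus strand: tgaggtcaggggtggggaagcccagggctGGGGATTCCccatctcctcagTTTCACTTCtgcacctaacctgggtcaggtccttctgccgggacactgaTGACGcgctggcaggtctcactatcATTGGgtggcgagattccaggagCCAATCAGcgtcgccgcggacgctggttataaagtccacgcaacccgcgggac
B2m, chr2:122147487-122147686, plus strand: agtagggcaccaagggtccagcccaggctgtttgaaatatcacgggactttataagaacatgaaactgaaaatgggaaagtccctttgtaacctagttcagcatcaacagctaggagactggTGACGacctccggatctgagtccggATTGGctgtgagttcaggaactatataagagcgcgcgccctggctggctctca

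Both class II promoters held the longer Y box, whose first base lay 51 bases before the start in H2-Aa and 62 bases before it in H2-Eb1, a match found in 4.07% of 27025 promoter windows of 250 bases. The X box core lay 90 bases before the start of H2-Eb1 and was found in 0.4% of windows. An X2 box core lay 74 bases before the H2-Aa start; it was found in 17.9% of windows. H2-K1 and H2-D1 shared the kappa B site, found in 0.218% of windows, and the interferon response element, found in 6.34%, in the same order. The kappa B site lay 111 bases before the H2-K1 start and 171 before the H2-D1 start, and the interferon element 90 and 150 bases before them. Their windows shared an identical run of 46 bases, against at most 8 bases between any other pair of the 5. H2-D1 also held the longer Y box on the minus strand, 53 bases before the start. B2m held an X2 box core at 78 and a Y box core at 53 bases before its start. It held no match to the exact patterns used for the kappa B site and the interferon response element. Other spellings of these elements were not searched, so B2m is not said to lack them. The Y box core alone was found in 34.5% of windows. These matches describe letters and were not tested for binding.

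Every class I gene was read in every library, with the fewest reads, 1, for Tap1 in Neutrophil replicate 1. H2-D1, a classical heavy chain, stood at 5.19, 5.19 and 5.37 log2 CPM in CMP, 6.67, 5.12 and 5.66 in CD115plusGMP, 7.60, 7.46 and 7.54 in PreNeut, 7.88, 7.73 and 7.72 in ProNeut and 9.26, 8.59 and 10.27 in Neutrophil libraries. CMP and CD115plusGMP libraries overlapped, and every Neutrophil library lay above every library of the other groups. H2-K1, the second classical heavy chain, stood at 4.99, 4.90 and 5.03 in CMP, 5.98, 5.64 and 4.68 in CD115plusGMP, 6.52, 6.42 and 6.24 in PreNeut, 6.70, 6.30 and 6.17 in ProNeut and 6.41, 6.34 and 7.93 in Neutrophil libraries. Its Neutrophil replicate 3 was high, and the other 2 Neutrophil libraries lay within the ProNeut range. B2m, the light chain that every classical class I molecule needs, stood at 5.68, 5.40 and 5.56 in CMP, 6.50, 5.47 and 5.14 in CD115plusGMP, 9.30, 9.11 and 9.24 in PreNeut, 9.33, 9.20 and 9.44 in ProNeut and 7.23, 7.58 and 7.75 in Neutrophil libraries. PreNeut and ProNeut overlapped each other, and Neutrophil libraries lay between them and the progenitors without overlap.

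The loading genes were less uniform. Tapbp (tapasin) stood at 6.26, 5.64 and 5.48 log2 CPM in CMP, 6.34, 6.10 and 6.08 in CD115plusGMP, 5.91, 5.87 and 5.78 in PreNeut, 6.12, 5.86 and 5.94 in ProNeut and 8.01, 7.80 and 7.01 in Neutrophil libraries. Neutrophil libraries lay above all others, and the other 4 groups overlapped in part. Tap1, the peptide transporter subunit, stood at 5.51, 5.43 and 5.10 in CMP, 4.59, 4.56 and 4.18 in CD115plusGMP, 4.75, 4.78 and 4.86 in PreNeut, 4.62, 4.81 and 4.56 in ProNeut and 2.21, 6.40 and 5.29 in Neutrophil libraries. The Neutrophil libraries held 1, 27 and 24 Tap1 reads, so their spread covered the range of all other groups.

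Class II genes were mostly lower in rank than class I genes, with H2-Ab1 in CMP libraries the highest of them. Cd74, the invariant chain (chromosome 18 at 60803848 to 60812652, plus strand), stood at 2.67, 2.09 and 1.49 log2 CPM in CMP, 3.29, 1.50 and 3.10 in CD115plusGMP, 1.52, 2.36 and 2.19 in PreNeut, 1.97, 1.66 and 1.51 in ProNeut and 0.63, 0.62 and 3.93 in Neutrophil libraries, of which the first 2 held 0 reads and the third 9. All 5 groups overlapped. H2-Ab1, the I-A beta chain, stood at 3.73, 3.68 and 3.21 in CMP, 3.77, 1.50 and 3.10 in CD115plusGMP, 0.95, 1.20 and 0.13 in PreNeut, 0.83, 0.54 and -0.65 in ProNeut and 0.63, 2.94 and 3.14 in Neutrophil libraries. Its reads were 11, 13 and 11 in CMP, 10, 1 and 4 in CD115plusGMP and 0, 2 and 5 in Neutrophil libraries, against 52, 58 and 154 in PreNeut and 26, 30 and 16 in ProNeut, whose libraries are deeper. CMP libraries were the highest as a group, with the groups next to each other in the order overlapping.

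H2-Aa, the I-A alpha chain, was covered by few reads in the first set, with 1, 0 and 0 in CMP, 1, 3 and 0 in CD115plusGMP and 0 in all 3 Neutrophil libraries, which allows up to 2.36 CPM over the group. In the second set it held 39, 49 and 77 reads in PreNeut (0.54, 0.96 and -0.87 log2 CPM) and 26, 29 and 23 in ProNeut (0.83, 0.49 and -0.14). PreNeut and ProNeut overlapped. H2-Eb1, the I-E beta chain, held 0, 0 and 1 reads in CMP, 2, 0 and 1 in CD115plusGMP and 0 in the 3 Neutrophil libraries. It held 31, 41 and 340 reads in PreNeut (0.22, 0.71 and 1.27 log2 CPM) and 8, 0 and 21 in ProNeut (-0.81, -5.39 and -0.27), and no ProNeut library reached the lowest PreNeut library. Ciita, the class II coactivator, held 3, 2 and 1 reads in CMP, 0 in the 3 CD115plusGMP libraries, 0, 1 and 11 in PreNeut, 4, 6 and 0 in ProNeut and 1, 0 and 0 in Neutrophil libraries. No group held more than 12 Ciita reads in all; the 0 in CD115plusGMP allows up to 1.64 CPM over the group. The floors cover counting error only.

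**Figure D1:**
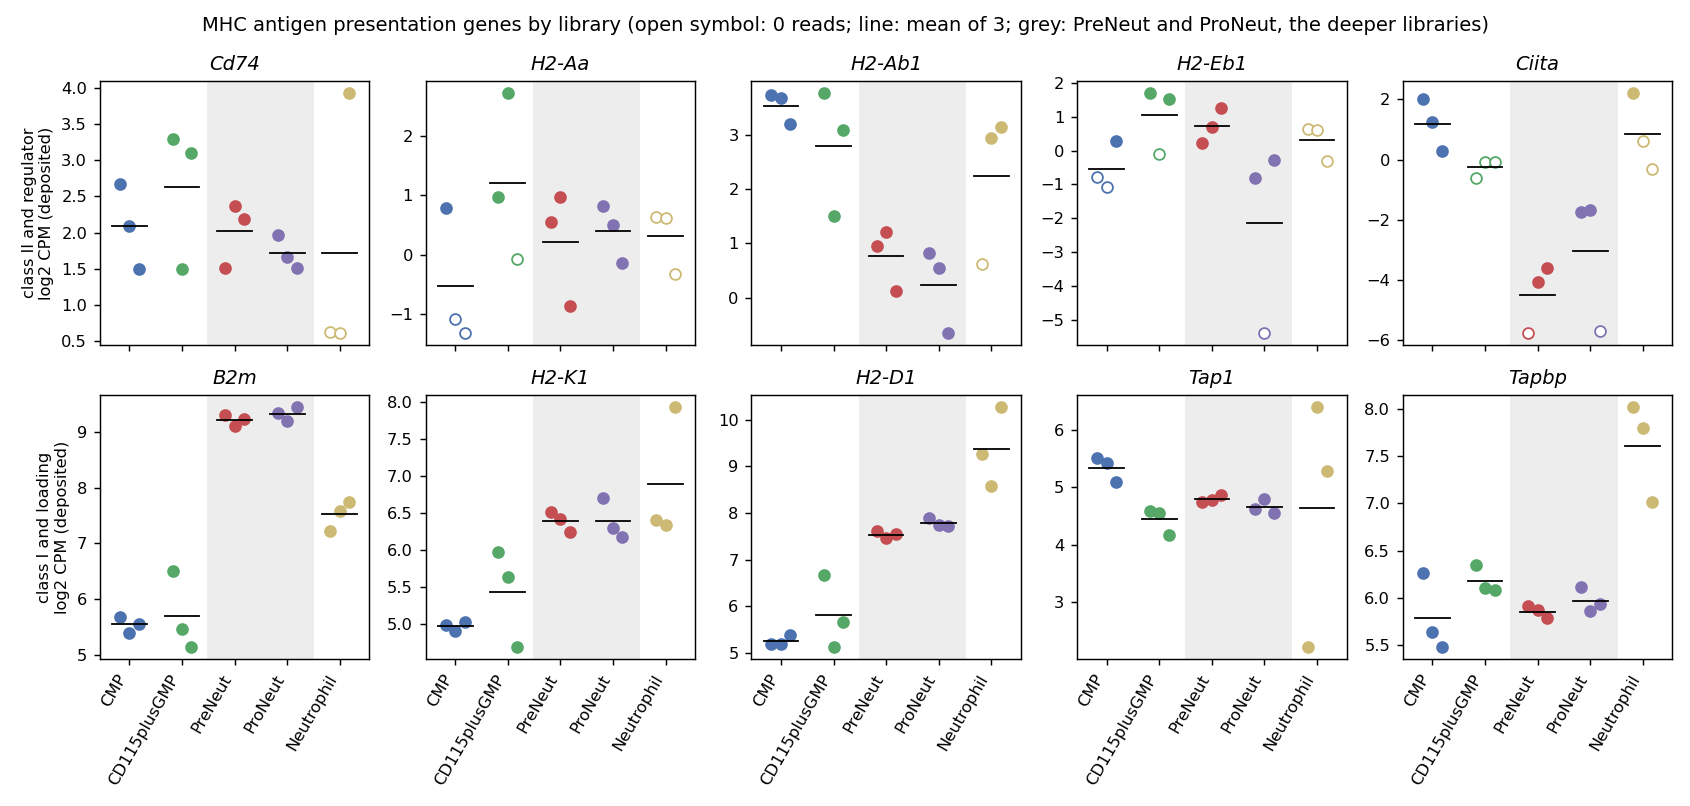
Log2 CPM of each gene in each library (points; open where the library had 0 reads), with the mean of 3 libraries as a line, in the order CMP, CD115plusGMP, PreNeut, ProNeut and Neutrophil; each panel has its own vertical range and grey marks the second set of libraries. H2-D1 and Tapbp are highest in the 3 Neutrophil libraries, B2m is highest in PreNeut and ProNeut, and the class II genes and Ciita are at or near 0 reads in many first-set libraries.

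Levels of different genes were compared per kilobase of the coding transcript. In PreNeut libraries B2m averaged 694 ± 46.5 CPM per kb (SD, n = 3), H2-D1 88.2 ± 4.46, H2-K1 52.1 ± 5.02, Tapbp 20.0 ± 0.900 and Tap1 9.42 ± 0.383. Class II genes were lower, with Cd74 at 2.96 ± 0.841 and H2-Eb1, H2-Ab1 and H2-Aa at 1.47, 1.46 and 1.16 CPM per kb, and Ciita at 0.0092. ProNeut libraries had the same order for the class I genes, from B2m at 747 ± 62.5 CPM per kb through H2-D1 at 105 ± 6.76 to Tap1 at 8.60 ± 0.768. At the Neutrophil loci H2-D1 averaged 353 ± 208 CPM per kb and B2m 214 ± 38.8. In 2 of the 3 Neutrophil libraries H2-D1 was above B2m, whereas it was below B2m in all 6 PreNeut and ProNeut libraries. In CMP libraries the highest class II gene per kb was H2-Ab1, at 9.32 ± 1.75 CPM per kb, beside 13.7 ± 2.01 for Tap1 and 53.9 ± 5.35 for B2m.

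Within a library, rank among the 14801 genes does not depend on the scaling of that library. B2m lay at a mean percentile of 99.7 in both PreNeut and ProNeut, at 93.4 ± 0.765 in Neutrophil, 90.2 ± 2.11 in CD115plusGMP and 90.5 ± 0.681 in CMP libraries (SD, n = 3). H2-D1 lay at 98.2 ± 0.140 in PreNeut, 98.4 ± 0.147 in ProNeut and 97.2 ± 1.64 in Neutrophil, against 90.5 ± 2.57 in CD115plusGMP and 89.1 ± 0.298 in CMP. H2-D1 thus ranked above both progenitors in all 9 libraries of the other 3 groups. For PreNeut and ProNeut, which belong to the second set, this order of ranks is not read as an order of levels. H2-Ab1 ranked at 74.5 ± 4.25 in CMP libraries, 63.8 ± 14.1 in CD115plusGMP and 49.2 ± 18.5 in Neutrophil, and at 39.1 ± 3.52 in PreNeut and 36.0 ± 4.83 in ProNeut. At 0 reads H2-Aa ranked at 24.4 in Neutrophil replicate 3, and H2-Eb1 at 5.68 in ProNeut replicate 2. With 1 read Tap1 ranked at 57.8 in Neutrophil replicate 1. That is above the PreNeut mean of H2-Ab1, which held 52 to 154 reads per library. The order of H2-Ab1 ranks across the sets is therefore not read as an order of levels. Cd74 ranked between 40.4 and 61.7 on average in the 5 groups.

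**Figure D2:**
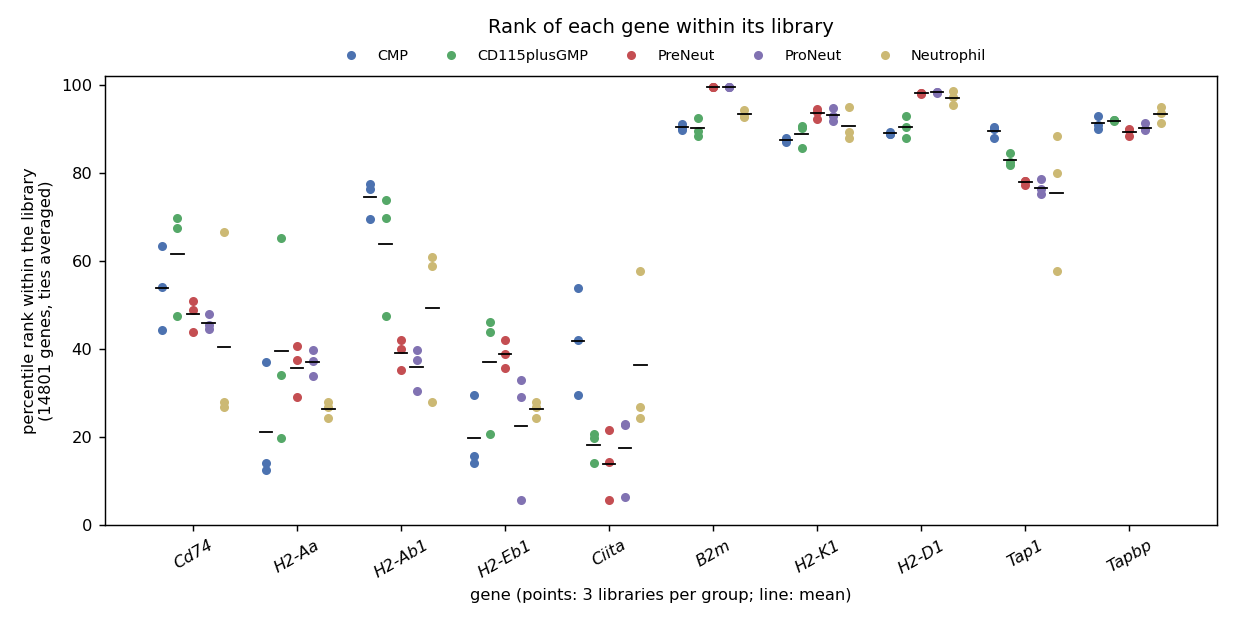
Percentile rank of each gene within its library (vertical axis, percent of the 14801 genes, ties averaged), with 3 points per group and their mean as a line. Class I genes lie mostly above the 75th percentile in every group, with 1 Neutrophil library of Tap1 at 57.8, and class II genes and Ciita lie lower and spread widely in first-set groups.

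ProNeut was compared with PreNeut to ask whether the 2 subsets of the second set differ in antigen presentation genes. None of the 10 genes was called at an adjusted p under 0.05 and an absolute log2 difference of at least 1; 2.26% of the 14161 genes tested were called. At an unadjusted p under 0.05 there was 1 of the 10, H2-Eb1, beside 1641 of all genes. H2-Eb1 differed by -2.89 ± 1.02 log2 units (SE, n = 3 per group; adjusted p = 0.209), with every ProNeut library below every PreNeut library. Its size rested on ProNeut replicate 2, with 0 reads, and was -1.27 without it. The limma voom fit on recovered reads called H2-Eb1 lower, at -3.14 (adjusted p = 0.0124), and none of the other 6 alternative settings did, nor any of the 6 fits that left out 1 library (adjusted p from 0.0624 to 0.915). H2-D1 was the other gene whose libraries did not overlap, at 7.78 ± 0.09 in ProNeut and 7.53 ± 0.07 in PreNeut (SD, n = 3 each), a difference of 0.24 ± 0.38; 36% of all genes tested had groups without overlap. With the second set fitted alone its adjusted p was 0.0422 at the same 0.24, below the size needed for a call. The differences of B2m, H2-K1, Tap1 and Tapbp lay between -0.13 and 0.12. Those of Cd74, H2-Aa and H2-Ab1 lay between -0.52 and 0.18. Each was smaller than its SE, which pools the spread of all 15 libraries and not that of this pair alone. The SE of Tap1 was 0.70, beside SDs of 0.06 in PreNeut and 0.13 in ProNeut libraries. These SEs therefore do not place the differences within the spread of PreNeut and ProNeut. Ciita, with 10 reads in ProNeut and 12 in PreNeut libraries, was at 1.45 ± 1.02 (adjusted p = 0.728). The median over the 10 genes was 0.05, beside 0.07 over all genes tested.

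CD115plusGMP was compared with CMP. None of the 10 loci was called, with 12.6% of all genes called, 8.08% higher and 4.56% lower. H2-Aa was the 1 locus with an unadjusted p under 0.05, beside 3620 of all genes; it rested on 4 reads in CD115plusGMP and 1 in CMP, a ratio of 6.93 (95% counting interval 0.686 to 342). Tap1 was at -0.91 ± 0.70 log2 units (adjusted p = 0.453) and its CD115plusGMP libraries all lay below the CMP libraries. Ciita was not called (adjusted p = 0.405), with no read in CD115plusGMP libraries against 6 in CMP libraries. With a bound of 3 reads for the 0 and the 6 taken as exact, it was 1.15-fold lower. Groups without overlap were seen for 39.3% of all genes, beside these 2 of the 10. H2-D1 at 0.57 ± 0.38, H2-K1 at 0.46 ± 0.41, Tapbp at 0.38 ± 0.29 and B2m at 0.16 ± 0.27 stood beside a median of all genes of 0.26. Cd74 was at 0.54 ± 0.77 and H2-Ab1 at -0.75 ± 0.72, and H2-Eb1 held 3 reads in CD115plusGMP and 1 in CMP libraries. The median over the 10 was 0.42, or 0.38 over 9 genes with Ciita at its bound.

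Neutrophil was compared with CMP and with CD115plusGMP; the comparisons share the Neutrophil libraries. At 4 class I loci, H2-D1, B2m, H2-K1 and Tapbp, Neutrophil libraries were higher than both progenitors. Against CMP, 4 of the 10 were called, all higher, where 43.9% of all genes were called and 26.8% were called higher. That share includes genes at or near 0 reads whose difference comes from library size. With libraries scaled to their plain read totals, 1923 genes were called higher and 4652 lower, against 3792 and 2420. H2-D1 was higher by 4.12 ± 0.38 log2 units (adjusted p = 1.95e-07), 17.4-fold, with 9.37 ± 0.84 in Neutrophil and 5.25 ± 0.11 in CMP libraries (SD, n = 3 each). B2m was higher by 1.97 ± 0.27 (adjusted p = 1.84e-05), H2-K1 by 1.92 ± 0.41 (adjusted p = 0.00104) and Tapbp by 1.81 ± 0.29 (adjusted p = 9.49e-05). The groups did not overlap at these 4 loci, nor at H2-Ab1; 52.9% of all genes had groups without overlap. The median over all genes tested was 0.60 and over the 10 genes 0.84, or 0.74 over the 8 with more than 3 reads in a group.

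The remaining loci were not called against CMP. H2-Ab1 held 7 reads in Neutrophil and 35 in CMP libraries, a difference of -1.30 ± 0.72 (adjusted p = 0.158). Cd74 differed by -0.36 ± 0.77 and Tap1 by -0.71 ± 0.70. Leaving out Neutrophil replicate 2 gave a call of lower Tap1, at -1.59, and leaving out replicate 1 gave 0.50 without a call. H2-Aa and H2-Eb1 held 0 reads in Neutrophil and 1 each in CMP, and Ciita 1 and 6 reads, a 2.42-fold lower ratio with a counting interval of 0.293 to 111.

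Against CD115plusGMP the same 4 loci were called higher, where 33.4% of all genes were called and 20.2% were called higher. With plain totals 1799 genes were called higher and 3121 lower, against 2861 and 1865. H2-D1 was higher by 3.55 ± 0.38 (adjusted p = 2.04e-06), 11.7-fold. B2m was higher by 1.82 ± 0.27 (adjusted p = 6.53e-05), H2-K1 by 1.46 ± 0.41 (adjusted p = 0.00975) and Tapbp by 1.43 ± 0.29 (adjusted p = 0.00109). The groups did not overlap at these 4 loci, beside 37.2% of all genes. The H2-K1 call was lost without CD115plusGMP replicate 3, at 1.09, without Neutrophil replicate 3, at 0.94, in the voom fit, at 1.59, after quantile normalization, at 0.44, and with plain totals, at 0.65. Tapbp lost its call in the last 2 of these, at 0.42 and 0.62, and B2m after quantile normalization, at 0.72. Cd74 was at -0.90 ± 0.77 and was called lower, at -2.00, without Neutrophil replicate 3, the 1 Neutrophil library with Cd74 reads. Tap1 was at 0.19 ± 0.70 and was called higher, at 1.40, without Neutrophil replicate 1. H2-Ab1 was at -0.55 ± 0.72. In Neutrophil and CD115plusGMP libraries H2-Aa held 0 and 4 reads, H2-Eb1 0 and 3, and Ciita 1 and 0, too few for a ratio. The median over the 10 was 0.65, beside 0.32 over all genes. It was 1.43 over the 7 that remain without H2-Aa, H2-Eb1 and Ciita.

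**Figure D3:**
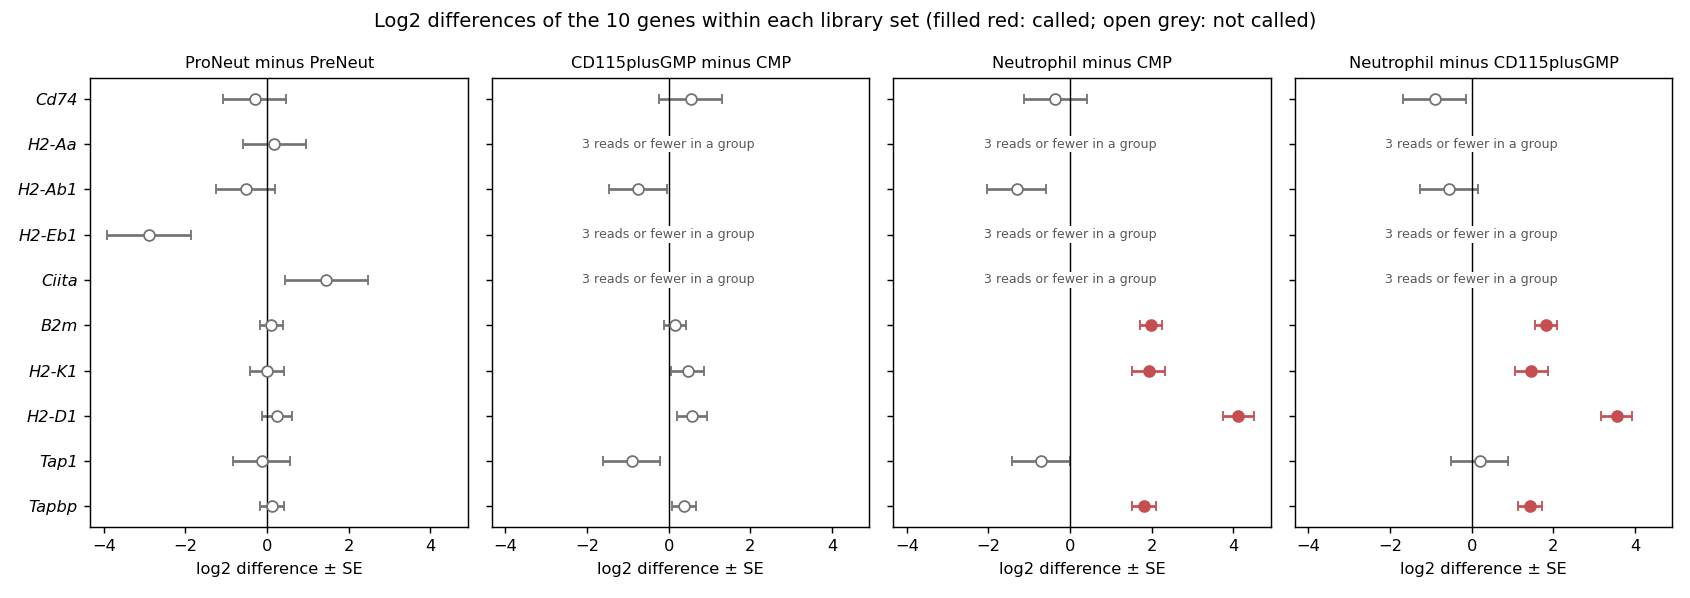
Log2 difference of each gene with its SE in the 4 comparisons within a set (n = 3 libraries per group). The SE pools the spread of all 15 libraries. Filled red points were called and open grey points were not, and no point is drawn where a group held 3 reads or fewer. H2-D1, B2m, H2-K1 and Tapbp are called higher in both Neutrophil comparisons, and no gene is called in the other 2.

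The size of the Neutrophil differences depended on how libraries were scaled. The library size implied by the deposited values was 0.254 to 0.908 times the reads of the table in the first set. H2-D1 was called in both Neutrophil comparisons under all 8 fits with all libraries, with 2.59 against CMP after quantile normalization and 2.76 with plain library totals. Among the 8, no filter, each set alone and the replicate block leave the difference of the deposited scaling unchanged by construction. B2m, H2-K1 and Tapbp stayed above 0 against CMP but lost their calls, at 0.70, 0.68 and 0.53 after quantile normalization and at 0.61, 0.56 and 0.45 with plain totals. In those fits H2-Ab1 was called lower, at -2.40 and -2.67, and so was Tap1, at -1.51 and -2.07. Against CD115plusGMP quantile normalization left the call of H2-D1, at 2.29, and plain totals left those of H2-D1, at 2.75, and B2m, at 1.01. The median of all genes against CMP was 0.60 with the deposited scaling, -0.03 after quantile normalization, 1.60 after median centring and -0.77 with plain totals. Relative to that median, the deposited scaling, median centring and plain totals give the same value by construction, so only quantile normalization adds a second one. H2-D1 lay 3.53 above the median and 2.62 above it after quantile normalization, B2m 1.38 and 0.72, H2-K1 1.33 and 0.71 and Tapbp 1.22 and 0.56. The 2 values for Tap1 spanned -1.48 to -1.31 and those for H2-Ab1 -2.37 to -1.90.

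**Figure D4:**
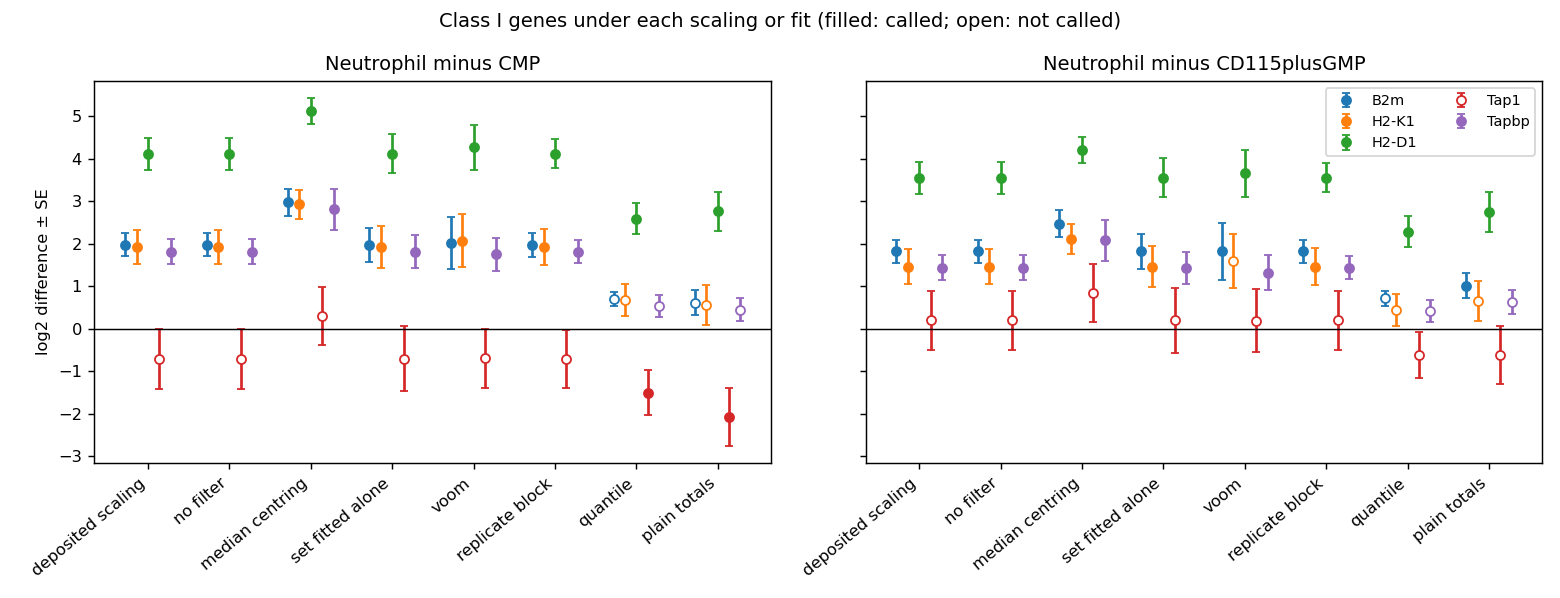
Log2 difference with its SE of the 5 class I genes, Neutrophil minus CMP (left) and Neutrophil minus CD115plusGMP (right), under the deposited scaling and 7 other scalings or fits; filled points were called. H2-D1 is called in each, the other called genes lose calls under quantile normalization or plain totals, and Tap1 lies on both sides of 0.

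Reads shared with other genes may limit 5 of the 10 loci. H2-K1 and H2-D1 are 92.0% identical over 1074 aligned coding bases, with identical runs of up to 91 bases, and H2-D1 is 89.6% identical to H2-Q10. H2-D1 and H2-T23 are 81.8% identical, with an identical run of 145 bases. Reads may be split between these genes. Tapbp shares 904 exon bases with Gm19412, an antisense gene on the opposite strand, which was named after its values were seen. Gm19412 held 5564 reads in the first set, where Tapbp held 541, and 62 in the second, where Tapbp held 14728. Its libraries stood at 11.17, 11.65 and 10.66 log2 CPM in Neutrophil, against 8.52, 8.34 and 8.34 in CMP, without overlap (2.76 ± 1.30, adjusted p = 0.0961). The part of Gm19412 in the Tapbp difference was not tested. Tapbp also shares 149 exon bases with Zbtb22, a protein-coding gene on the same strand. Zbtb22 held 113 reads in the first set and 7832 in the second. Tap1 shares 212 exon bases with Psmb9 on the opposite strand (217 Tap1 and 84 Psmb9 reads in the first set) and Ciita shares 329 with Dexi. In CMP replicates 1 to 3 Ciita and Dexi both held 3, 2 and 1 reads. For H2-K1, H2-D1, H2-Aa, H2-Ab1 and Cd74 no gene on the opposite strand overlaps, and for B2m and H2-Eb1 the overlap holds 0 exon bases. Overlaps were sought at the 10 loci only. For the other genes named below, first-set values are also values for the locus, with overlaps not checked.

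**Figure D5:**
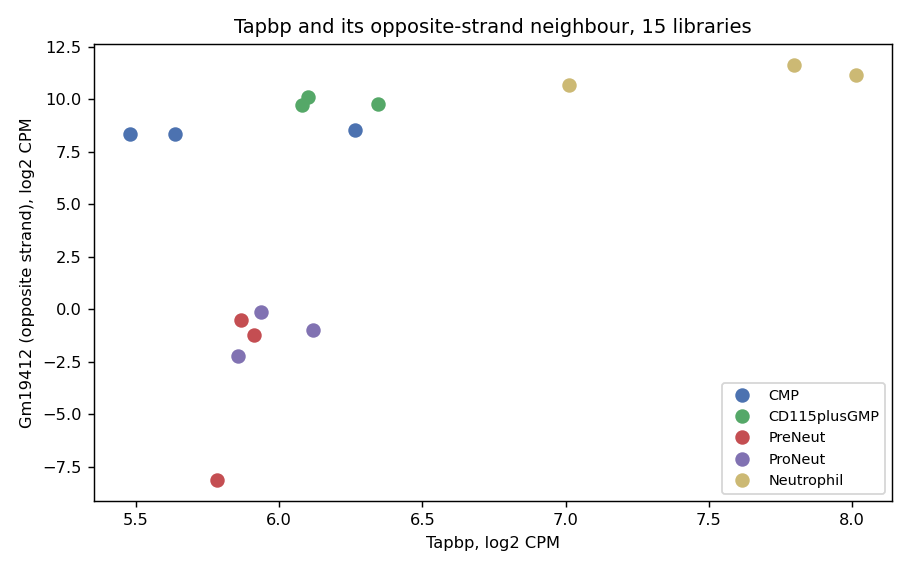
Log2 CPM of Gm19412 (vertical axis) against that of Tapbp (horizontal axis) in the 15 libraries, coloured by group. Gm19412 lies at 8.34 to 11.65 in the 9 libraries of the first set and at or below -0.14 in the 6 of the second, while Tapbp differs less between the sets.

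Among other class I heavy chain genes, 2 rose in ProNeut against PreNeut. H2-Q10, which encodes a secreted class I molecule, stood at 1.81, 1.75 and 1.99 log2 CPM in ProNeut, against -0.48, -0.11 and -0.41 in PreNeut libraries, a rise of 2.18 ± 0.42 (adjusted p = 0.0096). H2-T24, a nonclassical heavy chain gene, stood at 4.44, 4.04 and 4.35 in ProNeut, against 2.95, 2.98 and 3.19 in PreNeut, a rise of 1.23 ± 0.29 (adjusted p = 0.0354). These were the 2 of 15 listed genes called, both higher, beside 1.84% of all genes called higher; 1 was called with quantile normalization, 1 with plain totals and 0 with median centring. The median of the list was 0.62. Erythroid markers moved with this comparison, with 5 of 8 called higher in ProNeut and sums of 47.6 to 53.3 CPM in ProNeut and 2.44 to 6.19 in PreNeut libraries; their part in the result was not tested. In Neutrophil libraries H2-Q10 held 301 reads, beside none in either progenitor, and was at least 249-fold higher than in CMP and at least 144-fold higher than in CD115plusGMP. H2-T23, which encodes Qa-1, a ligand of natural killer cell receptors, stood at 5.38, 5.47 and 6.71 in Neutrophil and at 2.02, 1.24 and 2.93 in CMP (3.79 ± 0.48, adjusted p = 7.95e-06). It was also higher in CD115plusGMP than in CMP, by 1.61 ± 0.48 (adjusted p = 0.0371). H2-T23 was the 1 of 15 called there, beside 8.08% of all genes called higher. With plain totals that comparison had 0 of 15 called higher and 1 lower. Of the 15 genes 6 were called higher and 0 lower in Neutrophil against CMP, where 26.8% of all genes were called higher and 17.1% lower. The list's median was 1.37, which is the value of a gene with 0 reads in both groups and reflects library sizes alone. It was 2.33 over 8 genes with 0-read groups at their bound, and 0.0056 over the 15 with plain totals. H2-Ke6, one of the 6, carries an MHC region name but encodes a steroid dehydrogenase, and H2-Q2, another, rested on 2 reads against 0; H2-Q2 was named after its values were seen. With plain totals 3 were called higher and 1 lower.

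Genes of class I peptide supply did not move as 1 group. None of the 11 was called in ProNeut against PreNeut, where the 4 with the largest differences, Pdia3, Tapbpl, Erap1 and Canx, lay at -0.56 to -0.41. In Neutrophil against CMP 2 of 11 were called higher and 3 lower, beside 26.8% and 17.1% of all genes, with a median of 0.06 beside 0.60. Psmb9, an immunoproteasome subunit, was higher by 3.04 ± 0.76 (40 reads in Neutrophil and 7 in CMP, adjusted p = 0.00362), and Tapbpl, a tapasin relative, by 2.56 ± 0.78. Psmb10, another immunoproteasome subunit, had 3 reads in Neutrophil and 24 in CMP, a 3.22-fold lower ratio (95% counting interval 0.978 to 16.7), and Canx, the chaperone calnexin, was at -1.39 ± 0.28 (adjusted p = 0.000644). Against CD115plusGMP 3 were called lower, Calr (calreticulin, -2.54 ± 0.35), Canx (-1.39 ± 0.28) and Pdia3 (-1.34 ± 0.31), all chaperones of class I folding. These were 3 of 11, beside 13.2% of all genes called lower. The count was 1 lower after median centring and 4 lower with plain totals. In CD115plusGMP against CMP Psmb9 (2.75 ± 0.76) and Calr (1.16 ± 0.35) were called higher, 2 of 11, beside 8.08% of all genes. In that comparison 3 were called higher and 0 lower after median centring, and 0 higher and 1 lower with plain totals. The counts for Neutrophil against CMP were 3 higher and 0 lower after median centring and 0 higher and 5 lower with plain totals.

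Class II loading genes were called at few loci. March1, whose product removes class II molecules from the cell surface, stood at 6.36, 5.97 and 6.80 log2 CPM in Neutrophil and at 0.79, 1.73 and 2.15 in CMP (4.82 ± 0.44, adjusted p = 2.12e-07). It stood at 2.84, 3.08 and 3.10 in CD115plusGMP, higher than in CMP by 1.45 ± 0.44 (adjusted p = 0.0401). Ctss, cathepsin S, which cuts the invariant chain, was higher than CMP by 2.59 ± 0.69 in Neutrophil and by 3.59 ± 0.69 in CD115plusGMP. In all, 3 of 10 were called higher in Neutrophil against CMP and 1 lower (Ifi30, a lysosomal thiol reductase, 3 reads against 27), beside 26.8% and 17.1% of all genes. These counts were 1 higher and 2 lower with plain totals and 4 higher and 0 lower after median centring. In CD115plusGMP against CMP 2 of 10 were called higher, beside 8.08% of all genes. H2-DMa, a chain of the peptide editor DM, held 0 reads in Neutrophil and 9 in CD115plusGMP. It was 2.09-fold lower with a bound of 3 reads for the 0 and the 9 taken as exact. None of the 10 was called in ProNeut against PreNeut; March1 was at 1.13 ± 0.44 (adjusted p = 0.284).

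Regulators of MHC genes and genes of the interferon gamma response were also counted. In Neutrophil against CMP 5 of 14 regulators were called higher and 3 lower, beside 26.8% and 17.1% of all genes, with a median of 0.55 beside 0.60. Spi1, the myeloid transcription factor PU.1, was higher by 5.16 ± 0.55 and Irf1, an interferon-induced transcription factor, by 4.30 ± 0.51 (adjusted p = 3.72e-06). Irf8, a factor of monocyte and dendritic cell development, held 0 reads in Neutrophil libraries, against 92 reads in CD115plusGMP libraries and 39 reads in CMP libraries. It was at least 21.4-fold lower than in CD115plusGMP and at least 5.23-fold lower than in CMP. In CD115plusGMP against CMP Spi1 (2.13 ± 0.55) and Irf8 (1.86 ± 0.58) were called higher. These were 2 of 14, beside 8.08% of all genes called higher, and with plain totals 0 of 14 were called. In ProNeut against PreNeut 0 of 14 were called, with Irf8 at 1.54 ± 0.58 and Nlrc5, the class I coactivator, at 1.40 ± 1.03. Of 12 interferon gamma response genes 9 were called higher and 0 lower in Neutrophil against CMP, beside 26.8% and 17.1% of all genes, with a median of 2.16, or 2.33 over 11 with 0-read groups at their bound. Ifngr2, a receptor chain, held 87 reads in Neutrophil and 1 in CMP, a ratio of 216 (95% counting interval 37.8 to 8630). The count of 9 was 3 higher and 1 lower with plain totals. Against CD115plusGMP 6 of 12 were called higher, beside 20.2% of all genes, and in ProNeut against PreNeut 0 of 12.

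Of 8 costimulation genes, 4 were called higher in Neutrophil against CMP, beside 26.8% of all genes, and 0 with plain totals. Icosl (26 reads against 1), Cd274, which encodes the inhibitory ligand PD-L1 (13 against 3), and Cd86 (4 against 0) were among them, and Cd80 passed the test with 0 reads in both groups, so its value reflects library sizes alone. In CD115plusGMP against CMP 1 of 8 was called, Cd48 (higher, 18 reads against 3), beside 8.08% of all genes called higher. In ProNeut against PreNeut none was called, with 0.46 as the median.

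Markers of cells that carry class II molecules were read beside these results. The 11 dendritic cell markers summed to 73.5 to 111 CPM in Neutrophil libraries, from Itgax (54 reads), Cd209a (36) and Clec9a (34), with the other 8, Flt3, Zbtb46, Batf3, Xcr1, Siglech, Bst2, Clec10a and Tcf4, at 0 reads. They summed to 30.1 to 43.8 CPM in CD115plusGMP and 25.7 to 29.3 in CMP. In ProNeut they summed to 10.7 to 13.9 CPM, against 6.31 to 7.64 in PreNeut, where H2-Eb1 was the class II gene without overlap. Siglech, of plasmacytoid dendritic cells, was called higher in ProNeut (37 reads against 10) and Clec10a, of conventional dendritic cells and macrophages, lower, with 1 read against 110. Of the 11 markers 1 was thus called higher and 1 lower, beside 1.84% and 0.417% of all genes. After quantile normalization or median centring 0 of the 11 were called. The 7 B lymphoid markers summed to 43.3 to 91.9 CPM in Neutrophil, 3.81 to 11.7 in CD115plusGMP and 6.93 to 14.5 in CMP, and Cd79a made up 72 of the 74 Neutrophil reads. In ProNeut they summed to 1.38 to 2.14 CPM and in PreNeut to 1.49 to 2.77. The 14 monocyte and macrophage markers summed to 36.8 to 223 CPM in Neutrophil, 242 to 453 in CD115plusGMP and 6.44 to 18.5 in CMP, and to 321 to 378 in ProNeut and 353 to 395 in PreNeut. The part of such cells in the class I and class II values was not tested.

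Genes with a pattern like that of the members were sought over the 6 PreNeut and ProNeut libraries. The mean profile of Cd74, H2-Aa, H2-Ab1 and H2-Eb1 was close to Ldb1 (Pearson r = 0.970), Sipa1l3 (0.968), Atrn (0.962) and Ankib1 (0.962) among 6208 genes. The class I mean profile was most like Vill (0.986), Sun2 (0.980), Tnfaip3 (0.978), Map7d1 (0.965) and Ipo13 (0.964) among 6203. Members followed their own profile less closely, from -0.54 for Tap1 to 0.91 for Tapbp in class I and from 0.44 for H2-Eb1 to 0.83 for H2-Ab1 in class II. The 6 libraries share a set and differ in depth, and these values, among the highest of all genes compared, are given as a description.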

How the data were processed

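Per the labels' protocols, libraries of sorted marrow populations used a NuGEN Universal Plus mRNA-Seq protocol. The authors deposited log2 CPM values for 14801 genes; edgeR 1.30.5, featureCounts 1.22.2, FastQC 0.11.7 and GRCm38 (mm10) are named in the submitters' processing notes. The sources used here give no aligner, annotation or strand setting. Undoing the log and dividing by a step constant in each library gave whole reads plus 0.5 for 100% of values (tolerance 0.001 reads), so reads were recovered. Replicates differed beyond sampling noise (chi-square over its degrees of freedom from 2.10 to 24.4), so none was counted as a repeat. The 503 identifiers without a symbol held 55.6% to 69.5% of the reads of first-set libraries, against 0.102% to 0.146% in second-set libraries.

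Groups came from the sample titles. Genes with log2 CPM above 0 in at least 3 of 15 libraries (14161) were fitted with limma 3.58.1 in R 4.3.3 (group means over all 15 libraries, eBayes with trend, 2-sided, Benjamini-Hochberg over all genes tested); calls needed an adjusted p under 0.05 and an absolute log2 difference of at least 1. The fit was tested on simulated data. Alternatives were quantile normalization, median centring, plain totals, no filter, each set alone, limma voom on recovered reads, a replicate block and each library left out. The 0.5 reads in the deposited log2 values shrink changes of low genes and, where library sizes differ, give genes at or near 0 reads a difference that comes from library size. Where a group held 0 reads, a bound against 3 reads over the group is given. That bound, worded as at least, takes the other group's reads as exact and is not a confidence limit. No ratio is given where it does not exceed 1. For 1 to 3 reads, a ratio of scaled counts stands with its 95% counting interval (exact, counting error only). All members are named; of other lists the rule allowed up to 4 genes per comparison, the largest differences, called ones first. Some genes that this rule names are not reported here. Lengths, coordinates and overlaps came from GENCODE M21, promoters from RefSeq. Members and lists were chosen with earlier results of these data known, and the motifs after the promoters were read.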

Additional observations from a re-analysis of the deposited data

How the results depend on the processing

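Over the 10 genes and 4 comparisons, 247 of 280 log2 differences under 7 other settings kept their direction and their side of the threshold, 12 lost a call, 5 gained one and 16 changed sign; of the 240 values with 1 library left out, 220 kept both, 2 lost a call, 3 gained one and 15 changed sign. No filter, each set alone and the replicate block keep every difference by construction, so only calls could change there. The cause of the changes was not tested. For ProNeut minus PreNeut the sign changed for B2m with quantile normalization (-0.043) and for H2-K1 with median centring (0.047) and voom (0.058). For CD115plusGMP minus CMP it changed with plain totals for Cd74 (-0.013), B2m (-0.40), H2-K1 (-0.093) and Tapbp (-0.17), and for B2m with quantile normalization (-0.020). For Neutrophil minus CMP it changed with median centring for Cd74 (0.64), Ciita (0.66) and Tap1 (0.29) and with plain totals for H2-Aa and H2-Eb1 (both -0.52). For Neutrophil minus CD115plusGMP it changed for H2-Ab1 with median centring (0.10) and for Tap1 with quantile normalization (-0.62) and plain totals (-0.61). With 1 library left out, the ranges that cross 0 were, for ProNeut minus PreNeut, -0.36 to 0.56 for H2-Aa and -0.16 to 0.11 for H2-K1; for CD115plusGMP minus CMP, -0.24 to 0.44 for B2m; for Neutrophil minus CMP, -1.46 to 0.19 for Cd74, -1.03 to 0.24 for Ciita and -1.59 to 0.50 for Tap1; and for Neutrophil minus CD115plusGMP, -1.20 to 0.25 for H2-Ab1 and -0.69 to 1.40 for Tap1.

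Of the 10 genes, 1 was called in ProNeut minus PreNeut with voom, against 0, and 1 with quantile normalization and 2 with plain totals in Neutrophil minus CD115plusGMP, against 4. In Neutrophil minus CMP 3 were called with quantile normalization and 3 with plain totals, but only H2-D1 is shared with the 4. Over all genes, ProNeut minus PreNeut had 320 calls, 126 after quantile normalization, 186 after centring on medians, 903 with the set fitted alone, 1363 with voom and 195 to 405 with 1 library left out. CD115plusGMP minus CMP had 1790 calls and 2689 with quantile normalization. The share of calls that were higher was 81.6%, 63.9%, 61.0% and 60.5% in the order ProNeut minus PreNeut, CD115plusGMP minus CMP, Neutrophil minus CMP and Neutrophil minus CD115plusGMP. It was 62.7%, 52.8%, 47.5% and 44.9% after quantile normalization, 89.8%, 81.0%, 83.2% and 78.6% after centring on medians and 73.2%, 33.5%, 29.2% and 36.6% with plain totals. With the replicate block, 285, 1680, 6106 and 4712 genes were called, against 320, 1790, 6212 and 4726, and the counts among the 10 genes were 0, 0, 4 and 4 as without it; same-numbered libraries correlated by -0.05 to 0.15, so the numbers were not used as a pairing. Of 50 mean percentile ranks, 10 moved by more than 1 SD when ranked among genes with a symbol, by at most 2.03 points. In the first set 1 read was worth 0.804 to 3.09 CPM, which limits H2-Aa, H2-Eb1, Ciita, Cd74 and H2-Ab1 there.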
